A study of Canis lupus familiaris with 33 samples.

Results

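The methylated DNA of 2 brain tissues of the dog, the cerebrum and the cerebellum, was compared region by region. Each tissue had 1 deposited peak list, and the peaks of both lists on autosomes 1 to 38 were pooled and merged wherever they shared at least 1 base. The 296594 cerebrum peaks and 340948 cerebellum peaks gave 379822 regions, where all 11 tissues of the series together gave 450791. Of these regions, 234831 held a peak of both lists, 57745 a cerebrum peak alone and 87246 a cerebellum peak alone.

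The series covered 11 tissues of healthy adult beagles (3 dogs, 1 male and 2 female) by MBD-seq, with 22 MBD libraries and 11 input libraries. The dogs were untreated, and both brain tissues came from the same animals. Each had an MBD library of a female animal that gave one to all 11 tissues, an MBD library titled jj8 and labelled male, and an input library titled jj8 and labelled female. Titles of the MBD libraries hold 4 animal names where the protocol gives 3 dogs, and colon and stomach, used below for comparison, have the name jj82 in place of jj8. The labels also give animal jj8 both sexes, and the X chromosome was kept out of the comparison. DNA was taken from minced tissue, without sorting of cells, so that each list mixes the cell types of its tissue in unknown shares. The 2 MBD libraries of a tissue share 1 list, so the files give no spread between replicates, and no difference below has a test.

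Methylation of DNA in vertebrates falls mostly on cytosines followed by guanine, the CpG sites. In MBD-seq a protein domain that binds methylated CpGs captures sheared DNA (about 300 bases here), and DNA with many methylated CpGs is held most tightly. The captured DNA analysed here left the beads at 600 and 800 mM salt, per the labels' protocols, so the lists describe densely methylated sequence, and a region without a peak can still be methylated at scattered sites. The cerebellum is dominated by small, densely packed granule neurons, whereas the cerebrum holds larger neurons and a higher share of glia. Methylation patterns differ between cell types, and MBD-seq of whole tissue reads their average.

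Most of the methylated sequence was common to the 2 tissues. Shared regions were 61.8% of all regions (95% Wilson interval 61.7% to 62.0%) and 80.1% of the covered length. Base by base, 147.5 of 224.8 Mb were covered by both lists, a base overlap of 0.656. Cerebrum-only regions made up 15.2% (15.1% to 15.3%) and cerebellum-only regions 23.0% (22.8% to 23.1%). These intervals cover counting error alone. Of the cerebrum peaks 80.5% lay in shared regions, and of the cerebellum peaks 74.4%. The cerebellum list was longer but covered less, 179.96 Mb against 192.34 Mb. The excess of cerebellum-only regions depended on the length of its list. With each list held to its 296594 peaks with the lowest p-values, cerebrum-only regions were 20.5% and cerebellum-only regions 17.4%.

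Among the 55 pairs of tissues, the 2 brain tissues ranked 39 in the share of regions held in common, a share that ran from 49.6% to 76.7% (median 66.7%). Colon and stomach shared 76.7% of their regions, and liver and pancreas 70.1%. Every pair that ranked lower contained cerebellum or ovary, whose lists are the longest. Cerebellum shared between 49.6% (colon) and 59.5% (ovary) with each of the other 9 tissues, less than with cerebrum. Cerebrum shared between 63.8% (colon) and 70.4% (kidney) with each of the same 9, more than with cerebellum. Each list enters 10 pairs, so the pairs are not independent.

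Regions of 1 brain list alone were narrow and weak. Shared regions had a median width of 433 bases (quartiles 313 and 807), cerebrum-only regions 300 bases (259 and 392) and cerebellum-only regions 246 bases (221 and 283). A shared region joins peaks of both lists and so tends to be wider, but single peaks gave the same order. Cerebrum peaks had a median width of 387 bases in shared and 300 bases in cerebrum-only regions, and cerebellum peaks 354 bases in shared and 246 bases in cerebellum-only regions. A width of at least 1000 bases was reached by 18.7% of shared regions, by 1.83% of cerebrum-only regions (1055 regions) and by 0.0711% of cerebellum-only regions (62 regions). The shortest peak was 210 bases long in the cerebrum list and 188 bases in the cerebellum list. When peaks under 210 bases were left out, 5.75% of the cerebellum peaks, the median widths of the 1-tissue classes were 298 and 255 bases.

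Enrichment was compared as normalised fold, the deposited fold of a peak divided by the median of its own list (6.27 in cerebrum, 6.79 in cerebellum), with the highest peak standing for a region. A value of 1 is therefore a typical peak of that tissue. The median was 1.10 in cerebrum and 1.19 in cerebellum over the shared regions, 0.744 over the cerebrum-only regions and 0.702 over the cerebellum-only regions. Each list was then ordered by fold and cut into 10 groups of equal size, with group 1 the weakest. The share of peaks that stood alone fell from each group to the next in both lists, but along different curves. In group 1, 41.4% of cerebrum peaks and 54.7% of cerebellum peaks had no partner. In group 6 the shares were 15.6% and 18.3%, and in group 7 the order turned, with 12.01% and 10.91%. In group 10, 299 cerebrum peaks (1.01%) and 40 cerebellum peaks (0.117%) stood alone. A normalised fold over 2 was reached by 546 cerebrum-only regions and by 72 cerebellum-only regions. Over 1 the numbers were nearly equal, 12330 cerebrum-only regions (21.4% of the class) and 12280 cerebellum-only regions (14.1%). Among the stronger 50% of each list, merged anew, cerebellum-only regions were the more numerous, 27.6% against 19.8%. In that merge a peak whose partner was cut away counts as alone, so its shares cannot be set beside those of the 10 groups. With the full lists, the share standing alone was higher in cerebrum in each group from 7 to 10.

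**Figure D1:**
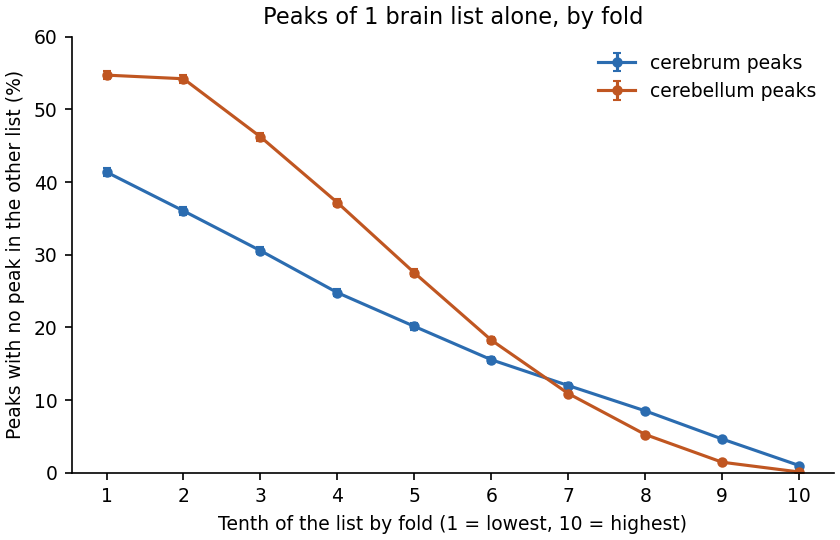
Percent of the peaks of each brain list that lie in a region with no peak of the other list (y axis), by group of fold (x axis, 10 groups of equal size, 1 is the weakest). Error bars are 95% Wilson intervals. The cerebellum curve starts higher, at 54.7% against 41.4%, and ends lower, at 0.117% against 1.01%.

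The 2 classes differed in what the other 9 tissues held at the same places, which the classes did not use. Of the cerebrum-only regions, 14834 also held peaks of all 9 other tissues, 25.7% of the class (95% Wilson interval 25.3% to 26.1%), so cerebellum was the single tissue without one. Of the cerebellum-only regions, 1540 did so, 1.77% of the class (1.68% to 1.86%). At the other end the order was the opposite. No other tissue had a peak in 35015 cerebellum-only regions, 40.1% (39.8% to 40.5%), against 3816 cerebrum-only regions, 6.61% (6.41% to 6.81%). A cerebrum-only region had a peak in a median of 6 of the 9 other tissues, a cerebellum-only region in 1 and a shared region in 9. The lists are not independent of each other, since the same female gave a library to each, and 5 of the other 9 tissues had their input library from jj8, as the brain tissues did.

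In the colon and stomach pair the same counts were nearer to each other. Of the colon-only regions 6.94% and of the stomach-only regions 8.80% had a peak in all 9 remaining tissues, while 4.76% and 1.98% had one in none. In liver and pancreas the shares in all 9 were 4.76% and 9.55%, and the shares in none 6.30% and 1.85%. The 25.7% of cerebrum-only regions found in all 9 lay above the 4 shares of these pairs, and so did the 40.1% of cerebellum-only regions found in none. The sets of 9 are unlike, however. For these 2 pairs they include cerebellum, which shared at most 59.5% of regions with any tissue but cerebrum.

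**Figure D2:**
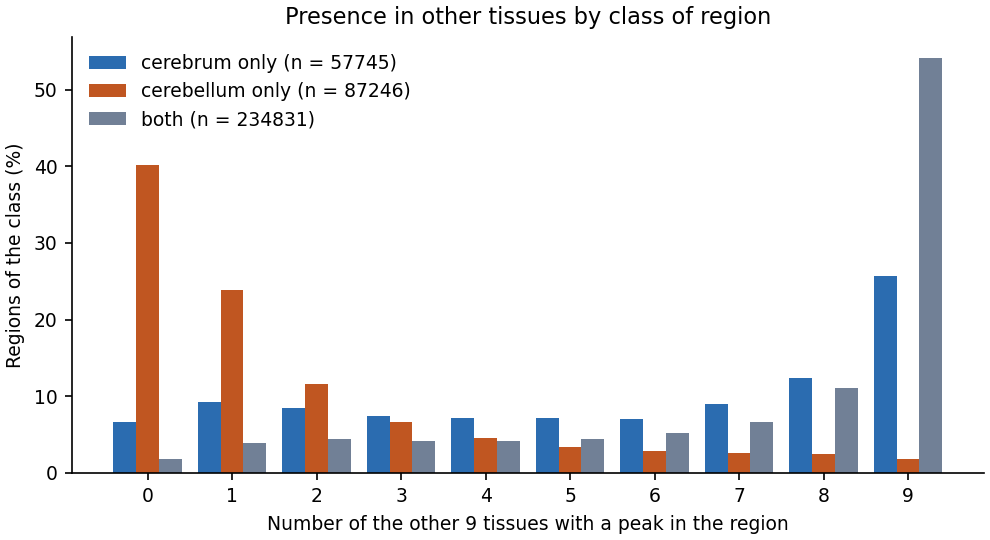
Percent of the regions of each class (y axis) by the number of the other 9 tissues with a peak there (x axis). Cerebellum-only regions pile up at 0 tissues (40.1%), whereas cerebrum-only regions (25.7%) and shared regions (54.2%) peak at 9.

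The pattern held in each tissue taken singly. Ovary, whose list is the longest of the 9, had a peak in 74.5% of the cerebrum-only and in 45.3% of the cerebellum-only regions. Kidney followed with 68.0% and 27.4%, and liver with 67.0% and 19.2%. Lung had 62.8% and 14.3%, spleen 58.6% and 16.3%, mammary gland 56.2% and 14.1%, and stomach 55.7% and 14.0%. Colon had 53.3% and 11.1%, and pancreas 51.4% and 12.1%. Each of the 9 lists thus met the cerebrum-only regions more often than the cerebellum-only regions. Within a class, fold rose with the number of other tissues, from a median of 0.592 in cerebrum-only regions of no other tissue to 1.01 in those of all 9, and from 0.638 to 0.940 in cerebellum-only regions.

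The strongest regions were mostly present in other tissues too. The 5 cerebrum-only regions with the highest fold all had a peak in the other 9 tissues. The first, chr1:112051878-112052494 (CanFam3.1, as for all positions here), had a fold of 21.4 in cerebrum, 3.41 times the median of its list. Its normalised fold in the other tissues lay between 1.83 and 4.89, with a median of 2.44, so that every tissue but cerebellum exceeded a typical peak of its list. The second, chr2:85088992-85089691, had a fold of 21.3 in cerebrum and normalised folds from 1.01 to 3.97 elsewhere. The others were chr13:38773457-38774388, chr1:41501457-41502256 and chr26:6509177-6510353, with folds of 20.3, 20.0 and 19.9. The widest cerebrum-only region, chr10:65773427-65776998, was 3572 bases long with a fold of 16.5, and it too had a peak in all 9 other tissues. The genes near these positions were not analysed.

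Among cerebellum-only regions the highest fold, 18.1 or 2.67 times the list median, was at chr10:38512296-38512992. Besides cerebellum, mammary gland alone had a peak there, at a normalised fold of 0.872, below a typical peak of its list. The next 4, chr24:44144864-44145242, chr11:64447190-64447963, chr10:11115564-11115902 and chr7:75752856-75753262, had folds of 17.5, 16.2, 16.0 and 15.8. The first 3 of these had a peak in all 9 other tissues, and the last in all but ovary, so that cerebrum was the tissue without one or among the few. Their median normalised fold elsewhere lay between 1.00 and 1.20. The widest cerebellum-only region, chr1:18480086-18481891, spanned 1806 bases with a fold of 13.8 and had weak peaks, normalised folds of 0.286 to 0.587, in liver, pancreas and stomach. Over the 546 cerebrum-only regions with a normalised fold over 2, 523 (95.8%) had a peak in all 9 others and 0 in none. Over the 72 such cerebellum-only regions, 17 (23.6%) had a peak in all 9 and 4 (5.56%) in none.

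In the shared regions the 2 tissues were compared by the log2 ratio of normalised fold, cerebellum over cerebrum. The ratio had a median of 0.10 with an SD over regions of 0.62, and its quartiles were −0.29 and 0.47. Over 2-fold higher in cerebellum were 12807 regions, 5.45% of the shared regions, and over 2-fold higher in cerebrum were 11812, or 5.03%. The balance between the directions depended on the scale. Dividing by the median over shared regions instead shifted every ratio by −0.12, and the shares became 3.49% and 6.76%. With lists of equal size they were 3.57% and 5.02%, and with the stronger 50% of each list 1.42% and 1.82%. Differences between the medians of groups of shared regions do not depend on that shift.

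The SD ranked 20 among the 55 pairs, which ran from 0.50 (colon and stomach) to 0.81 (cerebellum and mammary gland) with a median of 0.60. It was the lowest of the 10 pairs with cerebellum, of which the next was 0.63 (ovary), and the second highest of the 10 with cerebrum, after mammary gland (0.66). Past 2-fold in either direction were 10.5% of the shared regions of the brain pair, 4.93% of those of colon and stomach and 10.1% of those of liver and pancreas. Across shared regions the normalised folds of the 2 brain tissues had a Spearman's rho of 0.588 over 234831 regions, given as a description, since all regions of a list share its libraries.

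**Figure D3:**
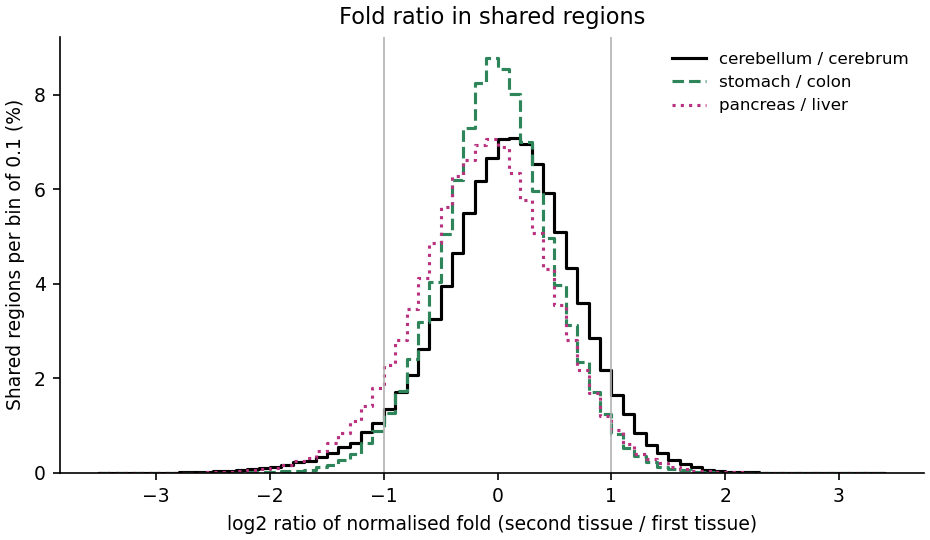
Percent of shared regions (y axis, bins of 0.1) by log2 ratio of normalised fold (x axis) for cerebellum over cerebrum, stomach over colon and pancreas over liver. Vertical lines mark 2-fold. The brain curve is centred at 0.10 with an SD of 0.62 and is wider than that of stomach over colon, which has an SD of 0.50.

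The ratio was lowest in the most widely methylated regions. In shared regions without a peak in any other tissue (4385 regions) the median ratio was 0.26, and it stayed between 0.15 and 0.29 in regions with 1 to 8 other tissues. In the 127258 regions with a peak in all 9 it was −0.01. The 2-fold calls toward cerebrum rose with the number of other tissues, whereas those toward cerebellum did not follow it in order. In regions of no other tissue 5.63% were over 2-fold higher in cerebellum and 0.388% in cerebrum, while in regions of all 9 the shares were 4.01% and 7.91%. The share higher in cerebellum was highest between, at 8.26% with 4 others, where 0.975% were higher in cerebrum. These stand against 5.45% and 5.03% over all shared regions. Fold moved with the number of other tissues too. The median normalised fold was 0.62 in cerebrum and 0.74 in cerebellum with no other tissue, and 1.52 and 1.53 with all 9. A shared region must hold a peak in both lists, so weak regions leave less room for a 2-fold lower peak. The part of fold in the result was not tested. Width also moved with the number of other tissues, since shared regions of all 9 others had a median width of 695 bases and those of none 292 bases. Among regions up to 300 bases wide, the median ratio was close in both, 0.21 with all 9 others and 0.24 with at most 4. Among those over 300 and up to 500 bases it was 0.06 with all 9 others and 0.27 with at most 4. Among those over 500 and up to 1000 bases it was −0.04 and 0.33, and among those over 1000 and up to 2000 bases −0.08 and 0.35 (247 regions with at most 4). The gap was thus small in the narrowest regions and larger in wider ones, and the part of width in the result was not tested further.

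Shared regions over 2-fold higher in cerebrum were the wider and more widely methylated group. Their median width was 718 bases, and 85.2% had a peak in all 9 other tissues, against 54.2% of all shared regions. Their median normalised fold was 1.79 in cerebrum and 0.649 in cerebellum. In 95.9% of them the cerebrum peaks also covered more bases, against 66.0% of all shared regions, with medians of 708 and 374 bases. Those over 2-fold higher in cerebellum had a median width of 403 bases, and 39.9% had a peak in all 9. Their median normalised fold was 0.661 in cerebrum and 1.58 in cerebellum, and the cerebrum peaks covered more bases in 18.8%, with medians of 317 and 385.

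The 8 shared regions with the lowest ratio all had a peak in the other 9 tissues. At chr34:9080115-9081921, the lowest, the fold was 22.0 in cerebrum and 2.44 in cerebellum, a log2 ratio of −3.29, and the normalised fold of the other tissues ran from 1.58 to 6.38. The cerebrum peak covered 1807 bases and the cerebellum peak 710. At chr20:54721901-54723383 the folds were 17.2 and 1.96, a log2 ratio of −3.25. At chr38:22780669-22781702 they were 20.3 and 2.37 (−3.22), and at chr10:45369339-45369924 they were 21.1 and 2.47 (−3.21). The other 4 lay between −3.06 and −3.05, at chr10:15734435-15736060, chr22:60399380-60400781, chr6:2189654-2190958 and chr6:74267342-74268719. In all 8 the median of the other tissues exceeded 2 times the list median, so that cerebellum, with normalised folds of 0.289 to 0.500, was the low tissue.

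At the other end the ratios were smaller. Of the 8 highest, 4 lay on chromosome 5, which held 5.49% of all shared regions, but over that whole chromosome 4.72% of the shared regions were over 2-fold higher in cerebellum, below the 5.45% over all. The highest, chr5:70333020-70333608, had a fold of 2.19 in cerebrum and 16.4 in cerebellum, a log2 ratio of 2.79. The other tissues had normalised folds from 0.429 to 2.43 there, and ovary had no peak. At chr5:48880814-48881578 the folds were 2.37 and 15.1 (2.56), and every other tissue had a normalised fold of at least 1.56, so that cerebrum was the low tissue. At chr25:31482573-31483518 they were 2.39 and 14.96 (2.53), and liver, lung, pancreas, spleen and stomach had no peak. At chr4:29293928-29294903 they were 2.75 and 17.0 (2.52), and at chr18:2499585-2500240 they were 2.01 and 12.1 (2.48). The remaining 3, chr9:3538223-3539153, chr5:78644600-78645691 and chr5:6212927-6213455, had log2 ratios of 2.45, 2.44 and 2.40. Median normalised folds of the other tissues ranged from 1.02 to 2.12 over these 8 regions.

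Where both tissues had a peak, they placed it alike. In 216727 shared regions, 92.3%, each list had exactly 1 peak. The summits, the positions of highest signal, lay a median of 21 bases apart (quartiles 9 and 44) and within 50 bases in 78.7% of these regions. The cerebrum peak was the wider in 64.8%, with medians of 363 and 334 bases. Unequal numbers of peaks mostly favoured cerebellum, with more cerebellum than cerebrum peaks in 14444 shared regions and the reverse in 3043. The extreme was chr30:38583179-38598760, where 1 cerebrum peak of 15582 bases faced 14 cerebellum peaks that covered 11328 bases.

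The classes were spread unevenly over the chromosomes. The share of cerebrum-only regions ran from 9.48% on chromosome 37 (95% Wilson interval 8.75% to 10.3%) to 21.9% on chromosome 9 (21.3% to 22.6%), with a median of 14.1%. Chromosomes 20 (20.0%), 5 (19.3%) and 26 (18.7%) followed chromosome 9. The share of cerebellum-only regions ran from 18.0% on chromosome 9 to 29.1% on chromosome 32, with a median of 23.8%. The share in both varied less, from 58.2% on chromosome 32 to 64.7% on chromosome 1. Cerebellum-only regions outnumbered cerebrum-only regions on 36 of the 38 autosomes, all but chromosomes 9 and 20. This count, too, depended on list length, and was 15 with lists of equal size. Chromosomes 9 and 37 kept their distance under that setting, with 29.1% and 13.8% of their regions cerebrum only.

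Across the 38 chromosomes, fold moved with the classes. Chromosome 9, with the highest share of cerebrum-only regions, was the only one with a median log2 ratio below 0 in its shared regions (−0.03). That 0 depends on the scale, and with the median over shared regions as the scale 21 autosomes lay below it, while the order of the chromosomes stayed. The highest median, 0.20, was that of chromosome 35, where 11.1% of the regions were cerebrum only and 28.2% cerebellum only. The share of cerebrum-only regions and the median ratio had a Pearson's r of −0.846 over 38 chromosomes. Density of regions moved with the shares of both classes. Against the number of regions per Mb, r was 0.499 for the cerebrum-only share and −0.696 for the cerebellum-only share. These are descriptions, since all chromosomes come from the same 2 lists and the density counts the same regions as the shares.

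**Figure D4:**
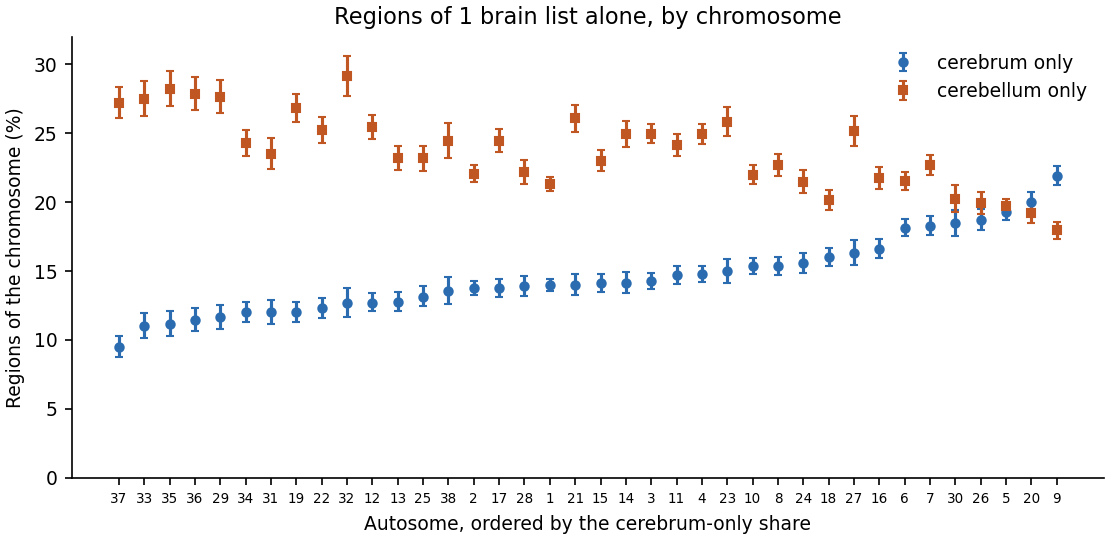
Percent of the regions of each autosome (y axis) that are cerebrum only (circles) and cerebellum only (squares), with autosomes ordered by the cerebrum-only share (x axis) and 95% Wilson intervals as error bars. Chromosome 9 has the highest cerebrum-only share (21.9%) and chromosome 37 the lowest (9.48%).

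Density was also examined in windows of 1 Mb. The windows with at least 50 regions were cut into 5 sets by their number of regions. In the sparsest set (50 to 86 regions), 11.1% of the regions were cerebrum only and 30.4% cerebellum only. In the densest set (258 to 556 regions) the shares were 15.4% and 16.7%, and 68.0% of the regions were shared. The cerebrum-only share did not rise throughout. It was 12.2%, 15.7% and 17.4% in the 3 sets between, while the cerebellum-only share was 30.5%, 27.9% and 23.7%. The distal end of a chromosome was taken as the end of its last peak in the 2 lists. The last 1 Mb before the distal chromosome ends was also rich in shared regions, with 72.9% in both, 13.1% cerebrum only and 14.0% cerebellum only. The first 1 Mb at the proximal ends was similar, with 70.9%, 11.9% and 17.3%. From 10 to 20 Mb off the distal ends the shares were 58.2%, 16.3% and 25.5%.

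Single windows departed far from these averages. Of these 2191 windows, 9 had a majority of cerebrum-only and 19 a majority of cerebellum-only regions. On chromosome 4, from 84 to 85 Mb, 74 of 114 regions were cerebrum only and 8 cerebellum only. Its shared regions had a median log2 ratio of −0.43. The other 4 windows with the highest cerebrum-only shares were mixed in this respect, with medians of −0.39 on chromosome 7 (52 to 53 Mb), −0.0020 and 0.11 on chromosome 15 (58 to 59 and 21 to 22 Mb) and 0.07 on chromosome 23 (42 to 43 Mb). On chromosome 16, from 17 to 18 Mb, 147 of 267 regions were cerebrum only, and the median ratio was −0.59, the lowest of all windows. On chromosome 9, from 16 to 17 Mb, the order was the opposite of that of the whole chromosome, with 53 of 91 regions cerebellum only, 2 cerebrum only and a median ratio of 0.36. On chromosome 19, from 46 to 47 Mb, 119 of 213 regions were cerebellum only and 6 cerebrum only. These windows, and the runs and neighbours that follow, were chosen after their values were seen.

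Regions of a kind lay beside each other. The region next to a cerebrum-only region was itself cerebrum only in 35.7% of cases, where 15.2% of all regions were. The region next to a cerebellum-only region was cerebellum only in 32%, where 23.0% of all were. Fold followed the same order. After a shared region over 2-fold higher in cerebrum, 29.1% of the next regions were cerebrum only and 9.50% cerebellum only. After one over 2-fold higher in cerebellum, 7.66% were cerebrum only and 28.9% cerebellum only. Over all neighbouring regions, presence and fold thus went the same way in these counts, although single windows above did not.

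Long unbroken runs were mostly those of cerebrum, although it had fewer regions of its own. Runs of at least 10 regions numbered 198 for cerebrum only, with 4.61% of that class, and 21 for cerebellum only, with 0.279%. Runs of at least 20 numbered 15 and 0. The longest, chr15:21506410-22031791, had 36 cerebrum-only regions over 525.4 kb and not 1 cerebellum peak. Their normalised fold ran from 0.448 to 2.26 with a median of 0.859, so most were below a typical cerebrum peak. Each of the other 9 tissues had a peak in 14 (stomach) to 26 (ovary) of the 36 regions. A region of the run had a peak in a mean of 4.72 other tissues, below the 5.48 of all cerebrum-only regions. That cerebellum had none follows from how a run is defined.

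**Figure D5:**
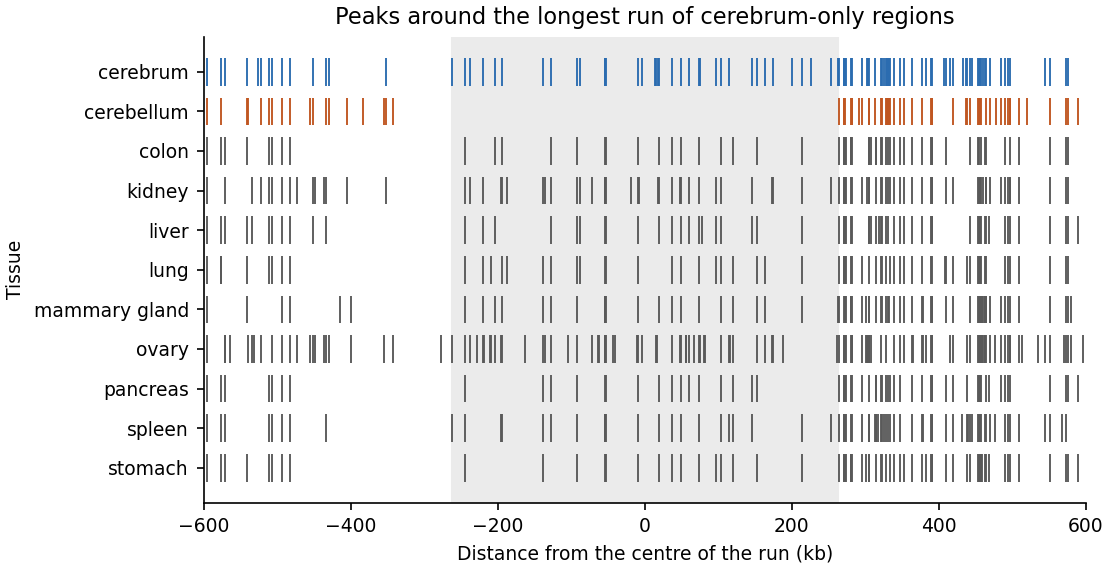
Peaks of the 11 lists in and around the longest run of cerebrum-only regions, by distance in kb from the centre of the run (x axis), 1 row per tissue and 1 tick per peak. Inside the run (shaded) cerebrum has 36 peaks, cerebellum 0 and the other tissues between 15 and 51.

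The next runs were shorter in bases. The run chr16:15620441-15697398 held 31 cerebrum-only regions in 76.96 kb, of which 18 (pancreas) to 28 (liver) had a peak in another tissue. The run chr3:51391667-51491209 held 30 in 99.54 kb, with 17 to 26 in another tissue. The runs chr15:58384027-58680318 and chr5:11528894-11611710 held 26 and 25. In each of these 5 runs, every other tissue had a peak in at least 8 of the regions, whereas cerebellum had none by definition.

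Cerebellum-only runs reached 17 regions at 3 places. The run chr3:71697888-71750202 spanned 52.31 kb, and 1 (lung) to 12 (ovary) of its regions had a peak in another tissue. At chr8:30506351-30567557 the count ran from 1 to 7 over the other tissues, and at chr33:20791570-21097453 from 1 to 13, with ovary highest in both. No list other than ovary, the longest of all 11, had a peak in more than 7 of the 17 regions of any of these 3 runs. Their regions had a peak in a mean of 2.82, 1.59 and 2.35 other tissues, against 1.74 over all cerebellum-only regions. The longest runs of cerebrum-only and cerebellum-only regions had 47 and 15 regions with lists of equal size, and 90 and 18 regions in the stronger 50% of each list by fold.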

How the data were processed

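MBD-seq captures were made from 11 tissues of beagles, and the 2 capture libraries of each tissue name 1 narrow-peak list. The deposited lists have no header, and columns were read by the narrow-peak format and their values. The build is CanFam3.1, per the submitters' processing notes. The aligner, the peak caller, the filters and the way the libraries of a tissue were combined are not given in the sources used here. The deposited fold of a peak (column 7, a ratio of enrichment) and its −log10 p-value are the authors' values, made before deposit, and the summit offset is likewise from the deposited lists. Read depth per library is unknown, so a difference in list length or in weak peaks cannot be told apart from a difference in depth.

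Peaks of autosomes 1 to 38 were merged where they shared at least 1 base. Fold was divided by the median of its list, and a call was a ratio past 2-fold. Named regions were the 5 strongest and the widest of each 1-tissue class and the 8 highest and 8 lowest ratios. Alternatives were a stricter threshold (the stronger 50% of each list by fold), lists of equal size, a minimum width, other overlaps, other scalings and a left-out chromosome. Python 3.11.15, numpy 2.4.6, pandas 2.3.3, scipy 1.17.1 and matplotlib 3.10.9 were used, and the merging was checked on simulated data. The comparison, the gene lists drawn up for it and the measures were chosen with earlier results of these data known. Genes, promoters and sequence were not analysed here.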

Additional observations from a re-analysis of the deposited data

How the results depend on the processing

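No paired analysis was possible because each tissue had 1 list. Of 101 values recomputed under alternatives, 31 stayed within the interval set around the reported value, 69 moved out of it and 1 changed sign. For shares, medians and SDs that interval came from the number of regions or bases. For run lengths and the count of autosomes it was a wide band set by hand. The causes were not tested.

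With the 50% of each list of highest fold, 52.6% of regions were shared, 19.8% cerebrum only and 27.6% cerebellum only, with a base overlap (bases in both lists over bases in either, 0.656 as reported) of 0.610. The log2 ratio had a median of 0.0519 and an SD of 0.45, and 1.42% and 1.82% of shared regions were over 2-fold higher in cerebellum and cerebrum. Median widths were 704, 421 and 306 bases for shared, cerebrum-only and cerebellum-only regions. Median normalised fold was 1.09 (cerebrum) and 1.15 (cerebellum) in shared regions, and 0.849 and 0.833 in the 1-tissue classes. Of cerebrum-only regions 19.03% had a peak in all 9 other tissues, and of cerebellum-only regions 34.7% in none, with all 11 lists held to that threshold. The longest cerebrum-only run had 90 regions.

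With lists of equal size, shares were 62.2% in both, 20.5% cerebrum only and 17.4% cerebellum only, so the order of the 1-tissue classes turned, and the base overlap was 0.653. The median ratio was 0.0040 with an SD of 0.58, and 3.57% were over 2-fold higher in cerebellum. Median widths were 437, 308 and 255 bases. Median normalised fold was 1.12 and 1.13 in shared regions and 0.751 and 0.720 in the 1-tissue classes. Cerebellum-only regions outnumbered on 15 autosomes, 27.5% of cerebrum-only regions were in all 9 others and 33.0% of cerebellum-only regions in none.

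With peaks of at least 210 bases, shares were 62.6%, 17.2% and 20.2%, with a base overlap of 0.659. The median ratio was 0.0529 with an SD of 0.61, and 4.51% and 5.50% were past 2-fold. Median widths were 441, 298 and 255 bases, and median normalised folds 1.11 and 1.16 in shared regions and 0.748 and 0.714 in the 1-tissue classes. In no other tissue were 36.96% of cerebellum-only regions.

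Scaled by the median over shared regions, the median ratio reversed to −0.0238, with 3.49% and 6.76% past 2-fold. With fold averaged by peak width the median was 0.0902, the SD 0.63 and the share higher in cerebrum 5.41%. With 1 peak in each list the median was 0.11, and 5.69% and 4.82% were past 2-fold. Merging over gaps of up to 200 bases gave 62.2% in both and 14.8% cerebrum only. Without chromosome 32, where 41.8% of regions were of 1 tissue alone, the base overlap was 0.657 and the median fold of cerebellum in shared regions 1.19.

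The alternatives for presence in other tissues, runs and chromosome counts were chosen after seeing the data. Alternatives for promoters were not run. With no list per library and unknown depth, a weak peak present in 1 list alone cannot be told apart from one missed in the other.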

Other observations

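The X chromosome was kept out of the comparison because the labels give animal jj8 both sexes. It held 19094 merged regions, of which 67.1% were shared, 9.44% (95% Wilson interval 9.04% to 9.87%) cerebrum only and 23.5% cerebellum only. The cerebrum-only share was thus just below that of chromosome 37, the lowest of the autosomes. In its first 7 Mb 72.7% of 2788 regions were shared, 9.83% cerebrum only and 17.5% cerebellum only, and past 7 Mb the shares of 16305 regions were 66.1%, 9.38% and 24.5%. The median log2 ratio of normalised fold, cerebellum over cerebrum, was 0.17 in the first 7 Mb and 0.09 past them.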
